A study of Danio rerio with 416 samples.

Results

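The genes described here are 8 adhesion genes used by the zebrafish blastoderm as gastrulation begins: CDH1, CDH2, PCDH8, PCDH18A, PCDH18B, EPCAM, FLRT3 and EFNB2B. They were chosen by name. All 8 have a row among the 25208 genes of the full-length table. In the 5-prime table of 19205 genes 7 have a row, and PCDH18A was not analysed there. Symbols are printed in capitals, as deposited.

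Each sample is 1 cell, picked by hand from deyolked and dissociated embryos at 50% epiboly, and 416 cells were collected. MZoep tz57 cells came from embryos with neither maternal nor zygotic one-eyed pinhead, a co-receptor (gene TDGF1) through which Nodal ligands signal, and Wild-type TLAB cells were set against them. Full-length SMART-seq2 libraries were made from 276 MZoep and 52 wild-type cells in 4 library preparation batches, p1 to p4. In batch p0, another 88 MZoep cells were read from the 5-prime end with UMIs (unique molecular identifiers, tags that mark each captured molecule), and no wild-type cell was made this way. Fish of each genotype were incrossed, so strain and clutch cannot be told apart from genotype. No label ties a cell to an embryo, so each genotype counts as 1 sample. Differences therefore have no replicate check and no test, and a standard deviation (SD) over cells describes cells within a sample.

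Classical cadherins bind cells of like type to each other, with catenins linking their inner ends to actin. CDH1 (E-cadherin) holds the blastoderm together and is needed for epiboly, the spreading of cells over the yolk, while CDH2 (N-cadherin) is used by mesodermal and neural cells. Protocadherins are weaker or indirect adhesion molecules, and PCDH8, known as paraxial protocadherin, marks mesoderm entering the germ ring. EPCAM is an epithelial adhesion molecule, abundant in the enveloping layer, the outer epithelium of the embryo. FLRT3 is a leucine-rich transmembrane protein that in Xenopus lowers cadherin adhesion together with the small GTPase Rnd1. EFNB2B is an ephrin, a membrane-bound ligand of Eph receptors, whose signals keep tissues apart.

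After cells with fewer than 1500 genes at 1 FPKM (fragments for each kilobase of transcript and each 1000000 mapped fragments) were left out, 245 MZoep cells (79, 80, 61 and 25 in p1 to p4) and 47 wild-type cells (3, 14, 18 and 12) remained. Their median number of genes per batch was between 6793 and 7528 in MZoep and between 6726 and 7162 in wild type. The depth relative to the median cell had batch medians of 0.737 to 1.23 in MZoep and 0.574 to 1.38 in wild type, lowest in p2 in both genotypes. The mutated gene TDGF1 was transcribed in both genotypes, at 47.5 ± 40 FPKM in MZoep cells and 45.6 ± 42.6 FPKM in wild-type cells (SD over 245 and 47 cells), so its level does not separate them. All 7 blastoderm markers examined were detected, and their summed level had a median of 2143 FPKM in MZoep cells and 1682 FPKM in wild-type cells. Summed enveloping layer markers had a median of 165.1 FPKM (0 to 10684) in MZoep cells and 74.04 FPKM (11.9 to 535.4) in wild-type cells. Summed yolk syncytial layer markers had a median of 0 in both genotypes.

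The 8 genes differed from each other in whether they were present in nearly every cell or in a minority. With FPKM 1 or more counted as detected, CDH1 and EPCAM were found in 243 and 245 of 245 MZoep cells, and each in 46 of 47 wild-type cells. CDH2 and PCDH18B lay between, and FLRT3, EFNB2B, PCDH8 and PCDH18A were each in fewer than 1 cell in 3 of either genotype. On the FPKM scale, which allows for transcript length, EPCAM had the highest mean level and CDH1 the next in both genotypes. A cell most often held 4 of the 8 genes, in 96 MZoep cells (39.2%) and 15 wild-type cells (31.9%). No cell held all 8, and 1 wild-type cell held 7.

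**Figure D1:**
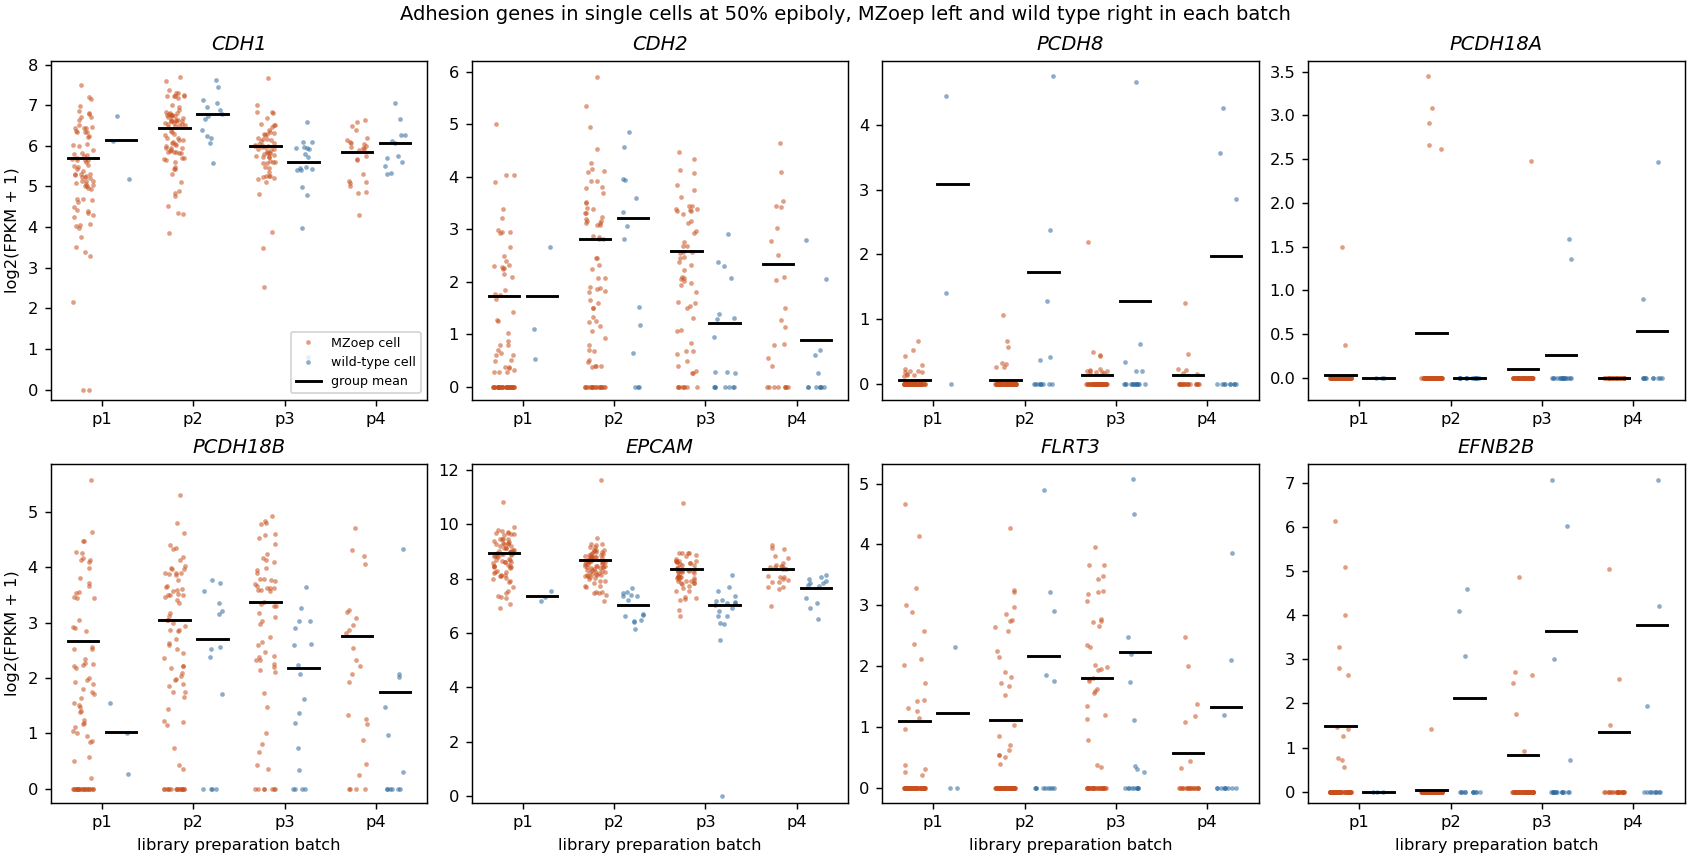
Level of each of the 8 genes in single cells as log2(FPKM + 1), by library preparation batch, with MZoep cells left and wild-type cells right. Each point is 1 cell and the bar is the log2 of the mean FPKM plus 1. EPCAM points of MZoep lie mostly above those of wild type in each batch, and PCDH8 points of MZoep lie near 0 while a few wild-type cells reach up to 25.9 FPKM.

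To compare genotypes, the mean FPKM of each batch was averaged with the same batch weights in both genotypes, and the MZoep mean was divided by the wild-type mean on a log2 scale after adding 1 FPKM to each. This pseudocount understates differences of low genes. A gene counted as measured when detected in 5% of the cells of either genotype. All 8 genes passed this filter, PCDH8 and PCDH18A through wild-type cells alone. EPCAM was the 1 gene of the 8 at least 2-fold higher in MZoep, against 5.15% of the 15831 measured genes. PCDH8 and EFNB2B were the 2 genes at least 2-fold lower, against 2.54% of measured genes. The median log2 ratio of the 8 genes was -0.06, beside 0.12 for all measured genes. The median of all measured genes was 0.19, 0.21, 0.27 and 0.00 within p1 to p4, and 0.25 with the highest cell of each genotype left out for each gene.

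**Figure D2:**
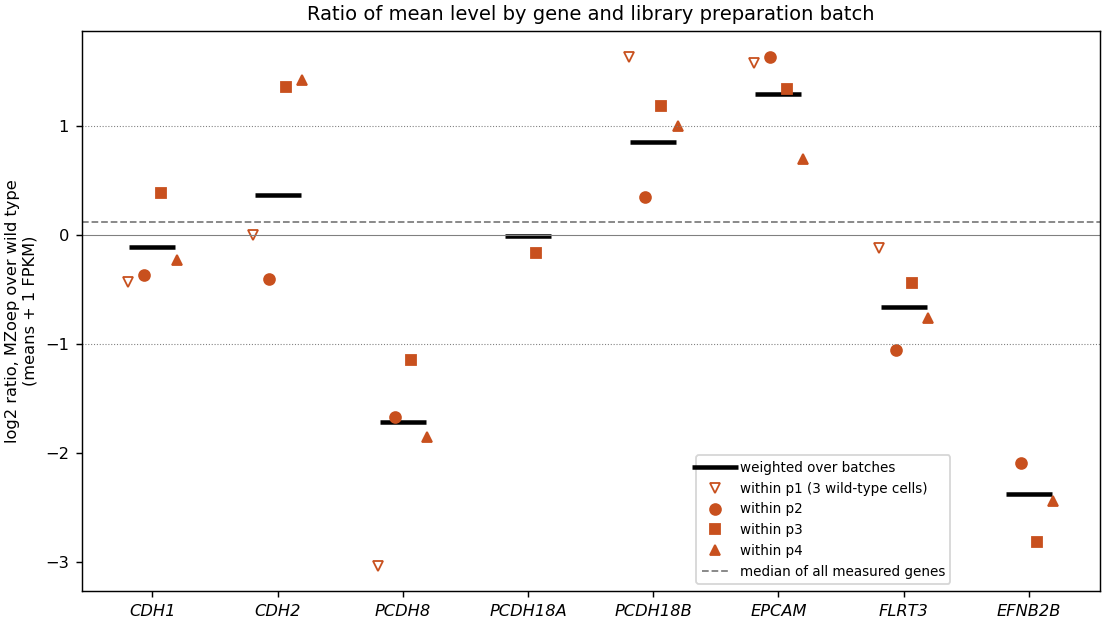
Log2 ratio of mean level, MZoep over wild type, for each gene. The black bar is the batch-weighted ratio, symbols are ratios within p1 to p4 (not drawn where a genotype is listed at 0 in the whole batch), the dashed line is the median of all measured genes and dotted lines mark 2-fold. EPCAM is above 0 and PCDH8 below 0 in each of the 4 batches, whereas CDH1 and CDH2 lie on both sides of 0.

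The classical cadherins did not separate the genotypes in a common direction over batches. CDH1 averaged 68 FPKM in MZoep and 73.7 FPKM in wild type, a log2 ratio of -0.11. Single cells ranged from 0 to 207.2 FPKM in MZoep (median 59.8) and from 0.75 to 194.6 FPKM in wild type (median 65.8), so the cells overlapped almost fully. Only 2 of the 245 MZoep cells lay above the highest wild-type cell. Within p1 to p4 the ratio was -0.43, -0.36, 0.39 and -0.23. The order of the batch means did not follow genotype. The highest was p2 in both, at 85.6 ± 41.1 FPKM in MZoep and 109.9 ± 41.3 FPKM in wild type (SD over 80 and 14 cells). The lowest was 47.96 ± 21.6 FPKM, in wild-type cells of p3, and neighbouring means in this order lay within the SD over cells. The 2 MZoep cells listed at 0 for CDH1 were p1 cells with 1788 and 2803 genes, far below the batch median of 7011.

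CDH2 averaged 4.89 FPKM in MZoep and 3.56 FPKM in wild type, a log2 ratio of 0.37. It was detected in 136 of 245 MZoep cells (55.5%, exact 95% Clopper-Pearson interval 49.05 to 61.8) and in 21 of 47 wild-type cells (44.7%, 30.2 to 59.9). These intervals, as all others here, cover counting error over cells only. The direction depended on the batch. In p2 CDH2 was lower in MZoep, at 6.04 ± 9.31 FPKM against 8.31 ± 8.90 FPKM in wild type (ratio -0.40). In p3 it was higher in MZoep, at 4.95 ± 5.09 FPKM against 1.32 ± 1.90 FPKM in wild type (ratio 1.36). In p4 it was also higher in MZoep, at 4.03 ± 5.99 FPKM against 0.863 ± 1.82 FPKM in wild type (ratio 1.43). In p1 the ratio was 0.00. Wild-type cells of p2 thus stood above those of p3 and p4, and the weighted ratio was 1.22 without p2 and -0.01 without p3. The relative depth of p2 was also the lowest. The summed level of 11 markers of the blastoderm margin differed between batches too. Its wild-type median was 353.1 FPKM in p1, 293.6 in p2, 142.8 in p3 and 112.6 in p4. The MZoep medians were 134.8, 183.1, 165.2 and 144.7 FPKM in the same order. The part of depth or of these markers in the CDH2 difference was not tested.

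Of the cytoplasmic partners, no gene of the catenin list was 2-fold apart. Of all measured genes 5.15% were at least 2-fold higher and 2.54% lower, so a list this small can hold none. Among 10 measured genes 6 had a higher and 4 a lower mean in MZoep, beside 9594 higher and 6237 lower of all 15831. The median log2 ratio was 0.14, beside 0.12 for all genes. CTNNA1 (alpha-catenin) averaged 28.1 FPKM in MZoep and 29.7 FPKM in wild type. CTNNB1 (beta-catenin, also the effector of Wnt signalling) had a log2 ratio of 0.38 and CTNND1 (p120 catenin, which stabilises cadherins at the membrane) of -0.09. Other classical and atypical cadherins had 8 measured genes with a median of 0.07 and none 2-fold apart, beside the same shares of all measured genes. The Snail genes, repressors of CDH1 in many animals, had ratios of -0.40 (SNAI1A), 0.18 (SNAI1B) and -0.28 (SNAI2). Each lay on both sides of 0 over the batches, SNAI1A from -1.13 in p4 to 0.22 in p2, SNAI1B from -0.44 in p2 to 2.75 in p1, and SNAI2 from -0.66 in p4 to 0.36 in p3. SNAI1A was in 241 of 245 MZoep cells and 46 of 47 wild-type cells.

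PCDH8 was close to absent from MZoep cells. It averaged 0.0721 FPKM in MZoep and 2.51 FPKM in wild type, a log2 ratio of -1.71 with the pseudocount and a 34.8-fold higher plain mean in wild type. It was detected in 3 of 245 MZoep cells (1.22%, 0.253 to 3.54) and 9 of 47 wild-type cells (19.1%, 9.15 to 33.3). The 3 MZoep cells held 3.57, 1.38 and 1.08 FPKM. The 9 wild-type cells held between 1.41 and 25.9 FPKM, and 5 of them were above 10 FPKM. In p1, the 79 MZoep cells held at most 0.57 FPKM, and the 3 wild-type cells 0, 1.63 and 20.8 FPKM. The ratio was negative in each batch, at -3.03, -1.67, -1.14 and -1.85 for p1 to p4, and -1.48 with the highest cell of each genotype left out. In p3 a single wild-type cell of 24.3 FPKM held 95.8% of the total of the 18 cells. With any 1 batch left out the gene was still more than 2-fold lower, but the ratio was -0.31 with 10 FPKM added to the means and -0.61 for the mean of log2 values. PCDH8 names more than 1 Ensembl gene in the zebrafish annotation, and whether reads of another copy enter its row was not tested.

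Wild-type cells with PCDH8 had higher mean levels of early mesoderm and notochord transcripts. Cells of all batches were pooled here with no batch weights. Of the 3 wild-type cells of p1, 2 held PCDH8, and the part of the batch mix was not tested. NOTO, the notochord homeobox gene, averaged 148.7 FPKM in the 9 cells with PCDH8 and 47.5 FPKM in the 38 without (medians 29.7 and 13.3 FPKM). TA (tbxta, the T-box gene of early mesoderm and notochord) averaged 91.6 FPKM in the cells with PCDH8 and 37.3 FPKM in those without (medians 42.9 and 6.53 FPKM). A few of the 9 cells carried these means. For NOTO they were 2 cells of 585.4 and 376.7 FPKM, with 5 of the 9 at 29.7 FPKM or less, and for TA 2 cells of 300.9 and 239.1 FPKM. The same p1 cell held the 585.4 FPKM of NOTO and the 300.9 FPKM of TA. Both genes were common in either set. TA was in 8 of the 9 cells and 28 of the 38, and NOTO in 8 of the 9 and 27 of the 38. TBX16, another T-box gene of mesoderm, was in all 9 and all 38. A p2 cell with 4.18 FPKM of PCDH8 was listed at 0 for TA, and a p2 cell with 1.41 FPKM was listed at 0 for NOTO. None of the 3 MZoep cells with PCDH8 held TA, although 136 of the other 242 MZoep cells did.

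The 5-prime libraries gave a separate view of PCDH8 in MZoep. Over 86 kept cells, with a median of 47194 UMIs (29246 to 73231), it had 8 UMIs in all, in 5 cells (5.81%, 1.92 to 13.1) and never more than 2 in a cell. Its summed level was 1.97 counts per 1000000 UMIs (CPM; exact Poisson interval 0.851 to 3.88, counting error only). With no wild-type cells of this library type no comparison can be made.

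The PCDH18 pair differed in level. PCDH18B averaged 7.59 FPKM in MZoep and 3.72 FPKM in wild type, a log2 ratio of 0.86 with the pseudocount and 2.04-fold in plain means. It was detected in 180 of 245 MZoep cells (73.5%, 67.5 to 78.9) and 28 of 47 wild-type cells (59.6%, 44.3 to 73.6). The ratio was above 0 in each batch, at 1.64, 0.35, 1.19 and 1.0 for p1 to p4. Cells of both genotypes overlapped, from 0 to 46.8 FPKM in MZoep (median 4.14) and from 0 to 19.2 FPKM in wild type (median 1.91). The PCDH18B level and the number of genes seen in a cell had a Pearson r of 0.25 over 292 full-length cells, after the mean of each genotype and batch was subtracted, and of 0.03 over the 86 5-prime cells. In the 5-prime cells PCDH18B was at 66.01 CPM (58.3 to 74.4) and in 69 of 86 cells.

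PCDH18A was rare. It averaged 0.170 FPKM in MZoep and 0.174 FPKM in wild type (log2 ratio -0.01), with 7 of 245 MZoep cells and 3 of 47 wild-type cells at FPKM 1 or more. Of the 7 MZoep cells 5 were in p2, the highest at 9.91 FPKM, and the 14 wild-type cells of p2 were all listed at 0. Of the 7 MZoep cells with PCDH18A, 1 held FLRT3 and 0 held EFNB2B, beside 26.5% and 7.35% of all MZoep cells. All 3 wild-type cells with PCDH18A held both FLRT3 and EFNB2B, beside 31.9% and 19.1% of all wild-type cells. These 3 are the wild-type cells highest in EFNB2B, described further below, and are no separate observation. The pair are paralogs, as are EFNB2A and EFNB2B, and whether reads were split between them in counting was not tested. Among 4 other measured protocadherins none was 2-fold apart, beside 5.15% higher and 2.54% lower of all measured genes. PCDH19, which cooperates with CDH2 in zebrafish, had a ratio of 0.16 and was in 13 MZoep cells and 1 wild-type cell.

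Of the 8 genes, EPCAM had the highest ratio of MZoep over wild type. It averaged 366.6 FPKM in MZoep and 148.5 FPKM in wild type, a log2 ratio of 1.30 or 2.47-fold. Single MZoep cells ranged from 97.6 to 3193 FPKM (median 356.2) and wild-type cells from 0 to 283.5 FPKM (median 145.1). Of the MZoep cells, 171 of 245 (69.8%) lay above the highest wild-type cell and 6 below the wild-type median. EPCAM was thus higher across the population and not only in a few cells. The ratio was 1.58, 1.64, 1.34 and 0.70 for p1 to p4, and it was 1.27 with the highest cell of each genotype left out. In p4, the batch with the smallest difference, the means were 329.9 ± 118.5 FPKM in MZoep and 203.2 ± 62.1 FPKM in wild type (SD over 25 and 12 cells), and 14 of 25 MZoep cells exceeded every wild-type cell of that batch. All 4 MZoep batch means stood above all 4 wild-type batch means. The single wild-type cell listed at 0 was a p3 cell with 1877 genes that was also listed at 0 for CTNNB1. In the 5-prime cells EPCAM was in all 86, at 1229 CPM (1195 to 1264).

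**Figure D3:**
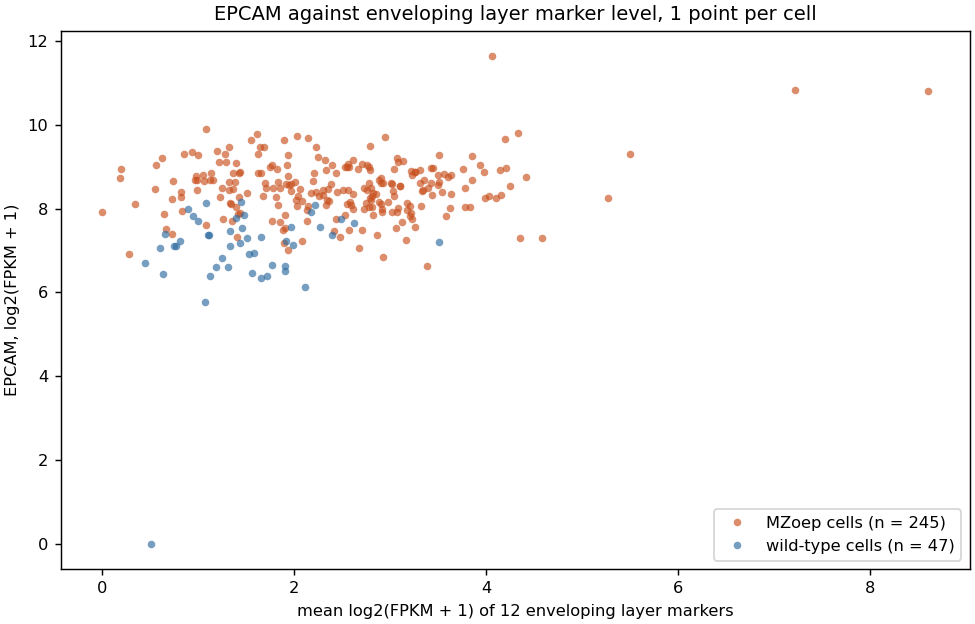
EPCAM as log2(FPKM + 1) against the mean log2(FPKM + 1) of 12 enveloping layer markers, 1 point per kept cell, for 245 MZoep and 47 wild-type cells. At like marker levels on the left of the plot most MZoep points lie above wild-type points, with some overlap, and the right of the plot holds MZoep cells only.

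Markers of the enveloping layer moved in the same direction as EPCAM. All 12 markers had a higher mean in MZoep, as did 9594 of the 15831 measured genes. Of the 12 markers 9 were at least 2-fold higher (75%, beside 5.15% of all measured genes). Their median log2 ratio was 1.49. Within batches this median was highest in p3 (1.85) and lowest in p4 (0.40). The EPCAM ratio was also lowest in p4 (0.70), but it was highest in p2 (1.64) and not in p3 (1.34). In p1 the marker median was 1.13 and the EPCAM ratio 1.58, so the order of the batches differed. These ratios are of means, which single high cells can lift. The median cell of p1 had summed markers of 105.8 FPKM in MZoep and 120.5 FPKM in wild type, the opposite direction. In p2 to p4 these medians were 177.1, 243.7 and 122.5 FPKM in MZoep. In wild type they were 38.1, 71.3 and 91.4 FPKM. None of the 12 was below FPKM 1 in all cells of a genotype. As a description, cells were also compared at like marker level, in classes cut over both genotypes together. Within a class the cells of all batches were pooled with no batch weights, so the mix of batches can differ between the genotypes. Over all cells, pooling alone gave EPCAM a log2 ratio of 1.43, beside 1.30 with batch weights. Among cells with the lowest marker levels EPCAM was at 420.5 ± 178.3 FPKM in 65 MZoep cells and 148.0 ± 64.4 FPKM in 32 wild-type cells (SD over cells), a log2 ratio of 1.5. In the middle class it was at 367.5 ± 155.8 FPKM in 83 MZoep cells and 156.6 ± 62.8 FPKM in 14 wild-type cells, a log2 ratio of 1.23. The highest class held 97 MZoep cells and 1 wild-type cell and gave no comparison. The classes are broad, and the part of enveloping layer content in the EPCAM difference was not tested. Across cells EPCAM and the marker level had a Pearson r of 0.23 over 292 full-length cells and 0.26 over 86 5-prime cells, points that share a library and its depth.

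A few MZoep cells carried EPCAM, CDH1 and enveloping layer transcripts together. The 3 cells highest in EPCAM held 3193, 1813 and 1784 FPKM. Their CDH1 levels were 194.2, 181.2 and 201.7 FPKM, ranks 3, 4 and 2 of 245. Their summed enveloping layer markers were 3639, 6995 and 10684 FPKM, and their mean log2 marker level ranked 15, 2 and 1 of 245. None of the 3 held PCDH18B, and CDH2 was at most 1.02 FPKM in them. Over all MZoep cells EPCAM and CDH1 were unrelated (r = 0.01, n = 245).

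Junction genes gave 3 of the adhesion genes that met the rule for naming, at least 2-fold apart and on 1 side of 0 within p2, p3 and p4. Of 22 measured junction genes 2 were at least 2-fold higher and 1 at least 2-fold lower (9.09% and 4.55%, beside 5.15% and 2.54% of all measured genes), with a median of 0.19. OCLNB, an occludin of tight junctions, averaged 21.8 FPKM in MZoep and 4.98 FPKM in wild type (log2 ratio 1.93), and was detected in 77.96% of MZoep cells and 46.8% of wild-type cells. Its ratio within p1 to p4 was 1.20, 2.12, 3.56 and 0.61. DSPA, a desmoplakin of desmosomes, averaged 2.498 FPKM in MZoep and 0.594 FPKM in wild type (1.13), with ratios of 0.01, 0.98, 1.69 and 0.35 within p1 to p4. JAM2A, a junctional adhesion molecule, averaged 16 FPKM in MZoep and 41.6 FPKM in wild type (-1.33), and was in 57.6% of MZoep cells and 89.4% of wild-type cells. In p1 to p4 its ratio was -1.80, -1.64, -0.82 and -1.17. OCLNB and DSPA were higher together with the enveloping layer markers, whose part in their difference was not tested.

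FLRT3 was lower in MZoep by less than 2-fold. It averaged 1.51 FPKM in MZoep and 2.96 FPKM in wild type, a log2 ratio of -0.66, and the ratios within p1 to p4 were -0.12, -1.05, -0.44 and -0.76. It was detected in 65 of 245 MZoep cells (26.5%, 21.1 to 32.5) and 15 of 47 wild-type cells (31.9%, 19.1 to 47.1), shares whose intervals overlap. The highest cell held 24.4 FPKM in MZoep and 32.6 FPKM in wild type. In p3 the share was higher in MZoep, at 28 of 61 cells against 6 of 18 wild-type cells, while the mean was lower, at 2.47 FPKM in MZoep against 3.70 FPKM in wild type. Of its known partners, 10 were measured with a median of 0.11, 7 of them above 0 and 3 below. Over all 15831 measured genes the median was 0.12, with 9594 above 0 and 6237 below, so the partners were close to all genes. RND1L, listed with the Rnd1 genes, averaged 9.22 FPKM in MZoep and 16.04 FPKM in wild type (log2 ratio -0.74). Its ratio was 1.76, -0.26, -1.07 and -1.28 within p1 to p4. UNC5B, a netrin receptor that binds FLRT3, had a ratio of 0.12 and was in 19 MZoep and 3 wild-type cells. FLRT2 reached FPKM 1 in 3 of 245 MZoep cells and 0 of 47 wild-type cells and did not pass the filter. For cells at FPKM 1 or more, 0 of 47 allows a share of up to 6.38% by 3 counts of the total, and up to 7.55% by the exact interval. UNC5DA was the 1 partner at least 2-fold higher (log2 ratio 1.02), 10% of the 10 beside 5.15% of all measured genes. Its ratio was -0.30 within p4.

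EFNB2B had the lowest log2 ratio, -2.37, and the difference rested on few cells. It averaged 0.778 FPKM in MZoep and 8.19 FPKM in wild type. It was detected in 18 of 245 MZoep cells (7.35%, 4.41 to 11.4) and 9 of 47 wild-type cells (19.1%, 9.15 to 33.3). The highest MZoep cell held 69.1 FPKM, and the 9 wild-type cells held 2.83, 7.03, 7.38, 16.1, 17.5, 23.3, 64.2, 133.0 and 133.1 FPKM. The 3 highest wild-type cells made up 81.5% of the summed wild-type level, and leaving them out gave a ratio of -0.61. It was -0.76 with 10 FPKM added to the means and -0.66 for the mean of log2 values. Within p2, p3 and p4 it was -2.09, -2.81 and -2.44. In p1 9 of 79 MZoep cells held the gene and the 3 wild-type cells were listed at 0, so the direction there was opposite. In the 5-prime cells it had 10 UMIs in 6 of 86 cells, 5 of them in 1 cell (2.46 CPM, 1.18 to 4.53).

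Those 3 wild-type cells all held FLRT3 (3.57 to 32.6 FPKM), EFNB2A (22.9 to 142.3 FPKM), PCDH18A (1.57 to 4.54 FPKM), TA (67.3 to 147.6 FPKM) and SOX32 (3.26 to 633.2 FPKM), at levels far apart. A p3 cell with 133.1 FPKM of EFNB2B had 633.2 FPKM of SOX32, the endoderm factor, together with 32.6 FPKM of FLRT3, the highest FLRT3 level of any full-length cell. A p4 cell with 133.0 FPKM had 410.1 FPKM of FOXA3, a forkhead gene of axial mesendoderm, 175.0 FPKM of NOTO, 18.3 FPKM of PCDH8 and 142.3 FPKM of the paralog EFNB2A. The remaining cell, of p3, had 64.2 FPKM of EFNB2B, 74.8 FPKM of EFNB2A and 15.5 FPKM of SOX32. All 3 ranked among the 8 wild-type cells highest in margin markers.

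Of 22 other measured Eph receptors and ephrins, 2 were at least 2-fold lower and none was higher by that much (9.09% and 0%, beside 2.54% and 5.15% of all measured genes), with a median of 0.10. EFNB2A averaged 2.80 FPKM in MZoep and 8.11 FPKM in wild type (log2 ratio -1.26), and was in 80 of 245 MZoep cells and 22 of 47 wild-type cells. Its ratio was -1.42, -1.11 and -1.52 within p2 to p4, and -0.31 without the 3 cells above. In p1, where the 3 wild-type cells were listed at 0, it was 1.51, the opposite direction. EFNA1A was also 2-fold lower (-1.45), but its ratio was 0.78, 0.22, -2.32 and -0.33 within p1 to p4. With the highest cell of each genotype left out, EFNB2A was at -0.87 and EFNA1A at -0.50. Neither was then 2-fold lower, so the share of 9.09% rested on single cells.

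The labels do not say where in the embryo a cell was picked. Cells were therefore ranked, within genotype and batch, by 11 markers of the blastoderm margin (TA, TBX16, NOTO, WNT8A and others, none of the 8 genes; 9 of them in the 5-prime cells), cut into 3 equal tiers, and the upper and lower tiers were set side by side as a description. Wild-type cells of p1 were too few to rank. Of the 10 measured margin markers, 5 were at least 2-fold lower in MZoep and 2 at least 2-fold higher. These shares are 50% and 20%, beside 2.54% and 5.15% of all measured genes. The median log2 ratio of the markers was -0.86, and -0.38, -0.20, -0.78 and -0.04 within p1 to p4. The tiers therefore need not match in place between the genotypes.

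**Figure D4:**
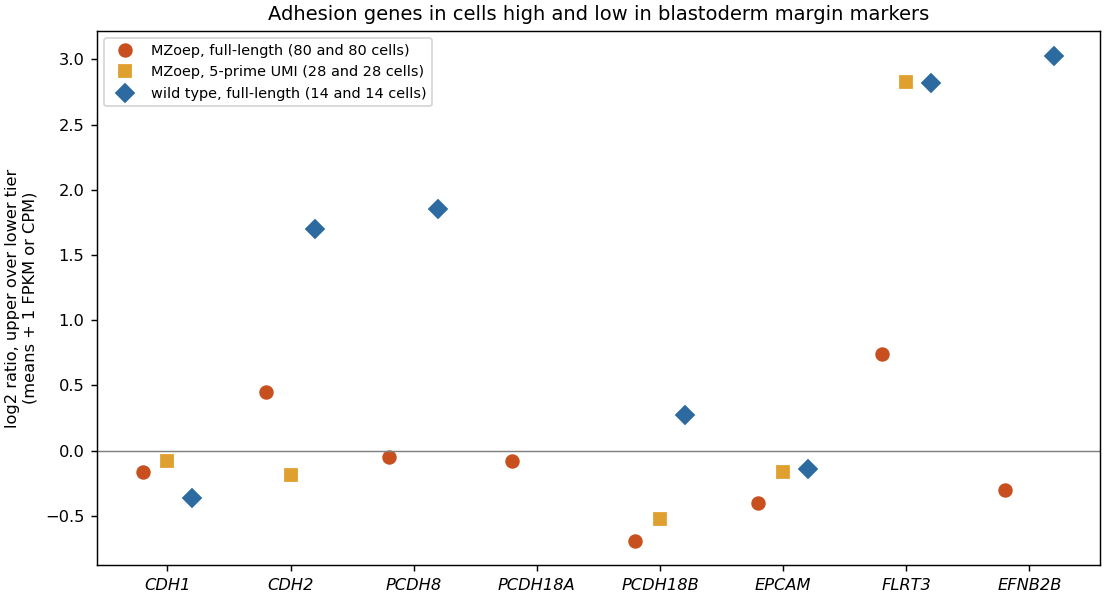
Log2 ratio of mean level in cells of the upper over the lower tier of margin marker level, for each gene, in full-length MZoep, 5-prime MZoep and full-length wild-type cells. Ratios against a tier at 0 are not drawn, nor are PCDH8 and EFNB2B in the 5-prime cells, with 8 and 10 UMIs in all. FLRT3 is above 0 in the 3 sets, while CDH1 and EPCAM lie a little below 0 in each.

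FLRT3 was higher towards the margin marker end in both genotypes. In MZoep it averaged 2.26 FPKM in the upper and 0.953 FPKM in the lower tier, in 31 and 11 of 80 cells each (log2 ratio 0.74, and 0.69, 0.24 and 0.85 within p2 to p4). The 5-prime MZoep cells gave 48.1 CPM in the upper and 5.91 CPM in the lower tier, in 14 and 6 of 28 cells each (log2 ratio 2.83). In wild type it averaged 7.5 FPKM in the upper and 0.200 FPKM in the lower tier, in 6 and 1 of 14 cells each (log2 ratio 2.82, and 2.66 with the highest cell of each tier left out). Within p2 and p4 a single upper cell held it, at 28.9 and 13.5 FPKM, and no lower cell. Within p3 4 upper cells and 1 lower cell did. By tiers of enveloping layer markers FLRT3 averaged 1.80 FPKM in the upper and 0.963 FPKM in the lower tier of MZoep. The 5-prime MZoep cells gave 32.6 and 11.1 CPM. In wild type the order was opposite, at 1.21 FPKM in the upper and 4.95 FPKM in the lower tier, in 4 of 14 cells each. The Pearson r of FLRT3 with the enveloping layer marker level was 0.07 in MZoep, 0.20 in 5-prime MZoep and 0.00 in wild-type cells.

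CDH1 and EPCAM were less than 2-fold apart between margin tiers in each set of cells and within each of p2, p3 and p4. In MZoep EPCAM averaged 324.3 ± 136.1 FPKM in the upper and 429.6 ± 234.5 FPKM in the lower tier (log2 ratio -0.40, and -0.14 to -0.65 within p2 to p4), and in wild type 137.0 ± 75.9 FPKM in the upper and 150.8 ± 54.97 FPKM in the lower tier (-0.14, and 0.25, -0.79 and 0.32 within p2 to p4). The mean of MZoep cells in either tier was above that of wild-type cells in either tier. CDH1 ratios were -0.16 in MZoep (-0.47, -0.08 and 0.19 within p2 to p4), -0.08 in 5-prime MZoep and -0.36 in wild-type cells (-0.43, -0.09 and -0.60). PCDH18B was lower in the upper tier of MZoep, at 5.02 FPKM against 8.70 FPKM in the lower (-0.69, but 0.12 within p4), and in 5-prime cells at 59.2 CPM against 85.4 CPM (-0.52). In wild type it averaged 4.30 FPKM in the upper and 3.41 FPKM in the lower tier (0.27), but 4.33 and 7.09 FPKM within p2.

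In wild type the remaining genes were high in single cells of the upper tier. EFNB2B averaged 25.04 FPKM in the upper and 2.19 FPKM in the lower tier (log2 ratio 3.03), in 5 and 2 of 14 cells each. Within p2, however, the 4 upper cells were listed at 0 and the lower cells averaged 7.66 FPKM. PCDH8 averaged 3.68 FPKM in the upper and 0.299 FPKM in the lower tier (1.85), in 3 and 1 cells. Within p2 1 cell of each tier held it, and within p3 0 cells of either tier did. The p3 cell of 24.3 FPKM and a p4 cell of 10.8 FPKM lay in the middle tier, which is left out here. CDH2 averaged 4.56 and 0.713 FPKM in the upper and lower tier (1.70), but 0.728 and 0.967 FPKM within p3. PCDH18A was in 3 upper cells and was listed at 0 in all 14 lower cells.

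**Figure D5:**
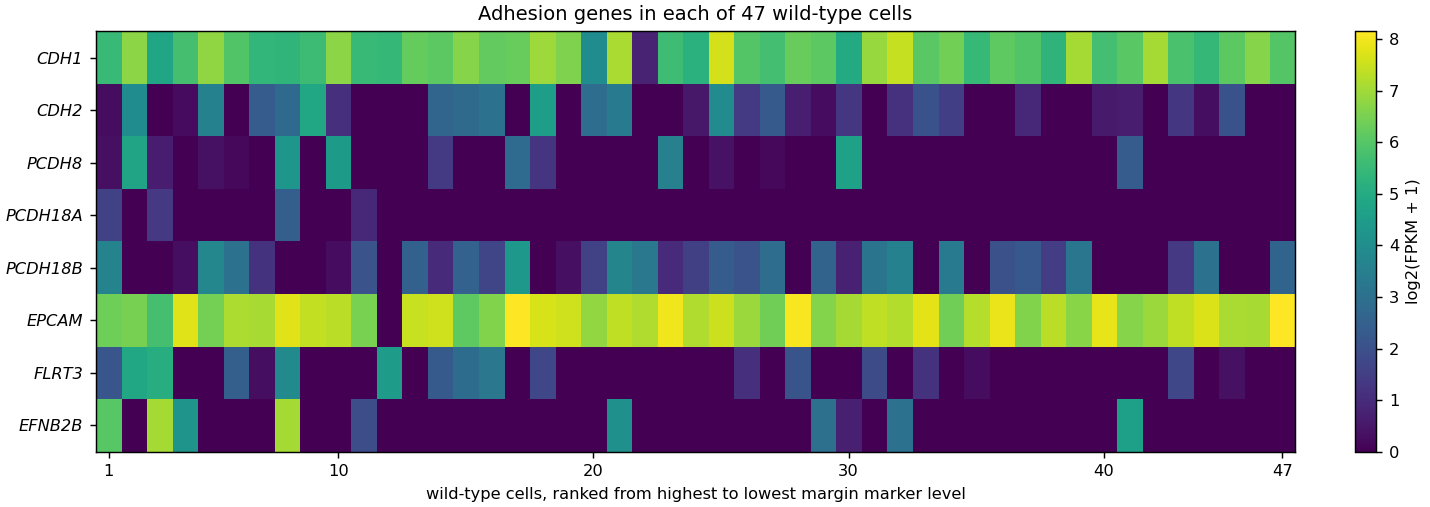
Level of the 8 genes as log2(FPKM + 1) in each of the 47 wild-type cells, ranked from the highest to the lowest margin marker level. CDH1 and EPCAM fill their rows apart from single cells, while PCDH8, PCDH18A, FLRT3 and EFNB2B appear in few cells and share some of them, PCDH18A in the first 11 ranks only.

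The minority genes overlapped in part. Of the 15 wild-type cells with FLRT3, 4 held PCDH8 and 3 held EFNB2B, beside 5 and 6 of the 32 without FLRT3. Of the 9 with PCDH8 2 held EFNB2B, beside 7 of the 38 without. Over all 47 wild-type cells PCDH8 and EFNB2B were each in 9 (19.1%). With so few cells these overlaps cannot be set apart from the shares over all cells. EFNB2A was in 10 of the 15 wild-type cells with FLRT3 and 12 of the 32 without. It averaged 22.1 FPKM in the cells with FLRT3 and 2.19 FPKM in those without (medians 8.16 and 0.245 FPKM). The 15 include the 3 cells highest in EFNB2B, with 22.9 to 142.3 FPKM of EFNB2A, so the difference in means is no separate observation. In MZoep none of the 3 cells with PCDH8 held CDH2, FLRT3 or EFNB2B, which were in 55.5%, 26.5% and 7.35% of all MZoep cells. Of the 18 MZoep cells with EFNB2B 7 held FLRT3, beside 58 of the 227 without. In wild type EPCAM and FLRT3 had a Pearson r of -0.44 over 47 cells, which was -0.27 over 46 cells without the cell listed at 0 for EPCAM. Such values describe cells of 1 sample that share depth and library.

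To see which other genes ran with each of the 8, the 10388 genes detected in 20% of cells or more were ranked by Pearson correlation over the 292 cells, after the mean of each genotype and batch was subtracted. Among the genes most like PCDH18B were CITED4B (r = 0.38) and ZIC2B (0.36), and in the 86 5-prime cells the r with ZIC2B was 0.39 and with CITED4B 0.02. FLRT3 was most like VENT, SI:CH211-157J23.2 and GBX1, each with r = 0.25, and the 5-prime values were 0.32, -0.15 and 0.23. EPCAM was most like SLC25A5 (0.49), SHISA2 (0.46) and CALM2A (0.40), for which the 5-prime values were -0.07, 0.16 and 0.22. CDH1 was most like SRSF6B (0.44) and 2 genes named only by clone (both 0.43), with 5-prime values of -0.05, 0.34 and 0.25. The full-length values are close to its r of 0.43 with the number of genes detected. CDH2 was most like VRTN, IGF2BP1 (both 0.27) and SP5A (0.26), with 5-prime values of 0.11, -0.15 and 0.07. PCDH8 and PCDH18A were both most like FOXA3 (0.31 and 0.25), and for EFNB2B STIM2 and SOX32 (both 0.24) came first. In the 5-prime cells the r of PCDH8 with FOXA3 was 0.00, and those of EFNB2B with STIM2 and SOX32 were 0.00 and 0.01. These genes are sparse, and their correlations were not recomputed without single cells.

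Genes of gastrulation movement and matrix adhesion completed the lists. Over all 8 lists, 118 of 182 genes were measured, with a median log2 ratio of 0.11, 4 genes at least 2-fold higher and 4 at least 2-fold lower. These shares are 3.39% each, beside 5.15% and 2.54% of all measured genes. FZD7A, a Frizzled receptor used in convergence and extension, averaged 16.5 FPKM in MZoep and 4.21 FPKM in wild type (log2 ratio 1.75). It was in 71.02% of MZoep cells and 36.2% of wild-type cells, and its ratio was 3.84, 1.69 and 0.27 within p2, p3 and p4. WNT5B, a ligand of the same pathway, averaged 1.59 FPKM in MZoep and 4.98 FPKM in wild type (-1.21), with the opposite direction in p4 (0.88). Of 14 measured integrin and matrix genes none was 2-fold apart and the median was 0.10.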

How the data were processed

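Per the labels, the libraries were made by a SMART-seq2 protocol. The authors deposited FPKM per gene and cell for the full-length libraries. The 5-prime values were deposited as UMI counts per gene and cell. Bowtie2, RSEM and build GRCz10 were used, per the submitters' processing notes, with versions, annotation, filters and UMI collapsing not given in the sources used here. A further 328 columns of the count table, those of the full-length cells, are 0 throughout and were left aside. Genotype and library preparation batch were taken from the labels; whether cells of both genotypes in a batch were handled together is not stated. No coordinates or sequences are given, since no genome of that build was at hand.

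A gene was detected at FPKM 1 or more. Full-length cells passed with 1500 detected genes (245 of 276 MZoep, 47 of 52 wild type), and 86 of 88 5-prime cells with 500 genes. No 2 kept full-length columns were identical and no doublet caller was run. Summed FPKM was between 546642 and 646223 per kept cell, and the 10 highest rows took a median of 56.9% of it in MZoep and 58.8% in wild type, so FPKM differences are relative to those rows. Depth is given as relative depth, read from the position of the lowest FPKM values of genes seen in part of the cells, and a mean FPKM therefore has no counting interval. Batch means were averaged with weights of 7.85%, 32.4%, 37.8% and 22.0% for p1 to p4 in both genotypes, and 1 FPKM was added before the log2 ratio. For the UMI counts, sums over cells were scaled to CPM. The ratio was also run on simulated data, but the outcome is not reported here and nothing is concluded from it. No statistical test across genotypes was run, since each genotype is 1 sample. Python 3.11.15, numpy 2.4.6, pandas 2.3.3, scipy 1.17.1 and matplotlib 3.10.9 were used.

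The 8 genes and all lists were chosen with earlier results of these data known. Genes named from the lists were those at least 2-fold apart and on 1 side of 0 within p2, p3 and p4, plus 9 paralogs and partners and the 3 genes most correlated with each of the 8, of which 1 gene is not reported here. EFNA1A, WNT5B, UNC5DA and RND1L, which missed that rule, as well as TBX16, TA, NOTO, SOX32 and FOXA3, were named after their values were seen. Alternatives were another pseudocount, other cell filters, no batch weights, the mean of log2 values, the highest cell or a batch left out and 2 rescalings.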

Additional observations from a re-analysis of the deposited data

How the results depend on the processing

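No paired analysis was possible because the results come from no test and the cell numbers in the titles pair nothing. EPCAM had a log2 ratio between 1.14 and 1.5 over the 15 alternatives and was at least 2-fold higher in each, and PCDH8, FLRT3 and EFNB2B were lower in MZoep in each. Low genes moved with the pseudocount by construction. Shares of all measured genes 2-fold apart were not taken under these alternatives. The counts of 2-fold genes here and in the next paragraph therefore describe the settings only. With 0.1 FPKM PCDH8 was at -3.92 and EFNB2B at -3.24, 2 of the 8 genes were at least 2-fold higher, and 17 adhesion genes were at least 2-fold higher and 7 lower. With 10 FPKM PCDH8 was at -0.31, EFNB2B at -0.76, FLRT3 at -0.17 and PCDH18B at 0.36, none of the 8 was 2-fold lower, and 1 adhesion gene was 2-fold higher and 0 lower. With the mean of log2 values PCDH8 was at -0.61, EFNB2B at -0.66 and FLRT3 at -0.18, 0 of the 8 were 2-fold lower, and 2 adhesion genes were higher and 1 lower. With no filter on cells 2 of the 8 were 2-fold higher, and without p2 3 were (CDH2 1.22, PCDH18B 1.17 and EPCAM 1.14), while CDH2 was at -0.01 without p3. With the highest cell left out EFNB2B was at -1.92 and 1 adhesion gene was 2-fold lower.

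Chosen after seeing the data, cells with at least 6000 genes put EFNB2B at -1.65 and FLRT3 at -0.30, with 1 adhesion gene 2-fold lower. Cells low in enveloping layer markers, pooled with no batch weights, put FLRT3 at -1.5, with 2 adhesion genes 2-fold higher; pooling alone put it at -0.70, with 4 higher. Within p3 the margin tiers of wild type gave -0.19 for CDH2, and within p2 -3.11 for EFNB2B, whose 4 upper cells were listed at 0. The causes of these shifts were not tested, other than by the construction of the pseudocount. The small number of wild-type cells, 3 in p1, is a limit for the minority genes.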
